A study of Mus musculus with 7 samples.

Results

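The 28 genes described here make cholesterol or regulate its synthesis, and they were taken by symbol from a list of the cholesterol synthesis and SREBP2 pathway. All 28 were present in both expression tables, of 48440 genes in the LPS table and 55352 genes in the AAV table. They were arranged by role into the mevalonate arm (8 genes, from acetoacetyl-CoA to the isoprenoid diphosphates), the sterol arm (12 genes, from squalene to cholesterol) and regulators and transport (8 genes). The rule used pathway membership and no measured value, but the pathway was chosen with earlier results of these data known.

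Macrophages derived from bone marrow (BMDMs) were cultured with the growth factor M-CSF at 20 ng per mL, and per the study's methods the wild-type mice were C57BL/6. In the first experiment WT BMDMs were left without treatment (0 h) or were stimulated for 2 h or 4 h with LPS, a bacterial cell wall lipid that activates macrophages, at 100 ng per mL, and each time point had 1 library. The second experiment used adeno-associated virus (AAV) for 48 h, with 2 samples of BMDMs that received GFP as control and 2 that received Shisa3, a transmembrane adaptor protein (labelled genotype, Shisa3 overexpression), each transgene under the CAG promoter. The labels do not say whether the samples came from separate cultures or animals, so p-values measure only the spread between these samples.

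Cells make cholesterol from acetyl-CoA through mevalonate, isoprenoid diphosphates, squalene and lanosterol. SREBP2, the product of Srebf2, is a transcription factor held in the endoplasmic reticulum by SCAP and INSIG proteins when sterols are plentiful. When sterols fall, SCAP carries it to the Golgi, the site 1 and site 2 proteases (Mbtps1 and Mbtps2) cut it free, and it turns on the genes of the pathway together with the factor NF-Y. In macrophages the pathway is known to respond to inflammatory signals, and 25-hydroxycholesterol, made by the product of Ch25h, is a known inhibitor of SREBP processing.

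The deposited LPS values were read counts divided by 1 factor per library, and the libraries held 15588502 reads (0 h), 7263258 reads (2 h) and 32659392 reads (4 h). No replicate stands behind a difference between these libraries, so none has a p-value, and the intervals given for their ratios are 95% intervals for counting error only. The AAV values were read as TPM, a share of a fixed total corrected for transcript length, and their depth is unknown. They were compared as log2(TPM + 1) with limma across the 11218 genes whose mean reached 1 TPM, and p-values were adjusted over all of them by the Benjamini-Hochberg method at a threshold of 0.05. The macrophage markers summed to between 34736 and 38318 TPM in the AAV samples, most of it Lyz2 (26378 to 29528 TPM). Among them Cd14 rose from 735 and 712 TPM to 1199 and 1282 TPM (limma adjusted p = 0.0153), while Fcgr1 lay below without passing, at 1127 and 1005 TPM against 862 and 812 TPM (limma adjusted p = 0.0694). The part of these markers in the members' differences was not tested. In the lymphocyte list Cd3e and Cd3g were at 0 in every AAV sample. Shisa3 itself was at 7.88 and 10.9 TPM with AAV-GFP and at 12.3 and 17.8 TPM with AAV-Shisa3, a log2 difference of 0.63 ± 0.22 (SE, n = 2 per group) that did not pass limma's test (adjusted p = 0.138). In the LPS libraries Shisa3 had 1, 164 and 3174 reads at 0, 2 and 4 h. Whether the deposited values count transcripts of the vector is not given in the sources used here.

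The promoters of the members were examined first, since the pathway's known regulators act there. RefSeq windows (GRCm38.p6, 250 bases before to 50 after each annotated start) were found for 24 of the 28 genes, and Fdps, Fdft1, Sqle and Stard4 had none in the table. On either strand, the letters CCAAT, which NF-Y is known to bind, were present in 20 of the 24 genes (83.3%), against 41.1% of the 27025 genes with a window and 37.4% of the 32851 windows. The sterol regulatory element core TCACNCCAC was present in 1 member, Hmgcs1 (4.2%), against 1.4% of genes with a window and 1.24% of all windows. The E-box-like letters TCACGTGA were in none of the 24, against 1.1% of genes with a window and 0.974% of windows. A match is a run of letters and not a binding site, and a missing match says only that these letters were not in the window.

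The bases upstream of the start are shown for 3 genes, each without any annotated exon. They belong to Hmgcs1 and Insig1, which differed in opposite directions in the 2 experiments, and to Mvd, whose log2 differences were -0.21 under AAV-Shisa3 and 0.03 at 4 h of LPS in the authors' values. Capitals mark the sterol regulatory element core (TCACCCCAC) and CCAAT on either strand, which reads ATTGG when it lies on the other strand. The sequences lie at chr13:119690101-119690350 on the plus strand (Hmgcs1), chr5:28071162-28071362 on the plus strand (Insig1) and chr8:122443423-122443672 on the minus strand (Mvd), and are written 5′ to 3′ along the gene, with positions counted from the RefSeq start.
Hmgcs1: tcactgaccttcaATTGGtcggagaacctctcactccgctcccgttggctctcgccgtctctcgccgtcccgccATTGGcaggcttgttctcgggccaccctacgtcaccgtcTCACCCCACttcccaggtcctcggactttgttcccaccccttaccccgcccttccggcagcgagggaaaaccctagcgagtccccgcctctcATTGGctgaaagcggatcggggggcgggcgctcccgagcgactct
Insig1: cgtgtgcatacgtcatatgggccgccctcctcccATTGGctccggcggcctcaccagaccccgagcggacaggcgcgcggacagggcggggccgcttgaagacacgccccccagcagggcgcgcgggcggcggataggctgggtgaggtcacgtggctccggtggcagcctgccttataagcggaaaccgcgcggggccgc
Mvd: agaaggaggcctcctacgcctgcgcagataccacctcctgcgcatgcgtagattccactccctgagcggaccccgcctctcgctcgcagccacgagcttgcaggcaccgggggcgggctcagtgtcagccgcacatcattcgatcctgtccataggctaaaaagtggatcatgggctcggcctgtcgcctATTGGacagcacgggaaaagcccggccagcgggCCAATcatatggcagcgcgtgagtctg
In the Hmgcs1 stretch the sterol element began at position -137 from the start, with CCAAT matches that began at -237, -176 and -45. In the Insig1 stretch there was 1 match, at -216, and in the Mvd stretch the matches were at -60 and -27.

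Under AAV-Shisa3 the genes of the pathway changed in both directions. Farnesyl diphosphate synthase (Fdps) and isopentenyl diphosphate isomerase (Idi1) rose, while HMG-CoA synthase (Hmgcs1), the sterol methyl oxidase Msmo1, the SREBP retention protein Insig1 and the sterol carrier Stard4 fell. Thus 2 of 28 members passed limma's test as higher, where 2.23% of all genes tested did, and 4 of 28 passed it as lower, where 4.10% did. The median log2 difference of the members was 0.14, against -0.10 over all genes tested, and without AAV-Shisa3 replicate 1 it was 0.04. Both AAV-Shisa3 samples lay above both AAV-GFP samples for 13 members, where 18.2% of all genes did so, and below them for 7 members, where 41.2% did. The other 8 members overlapped between groups. Centring the samples on their medians turned the all-gene counts from 250 higher and 460 lower to 410 and 230, and left 2 members higher and 3 lower. In bulk RNA, fewer cells of a type and less RNA per cell cannot be told apart. For any 1 gene, permuting 2 samples against 2 gives an exact two-sided p of 0.333 at best, so each call depends on limma's pooling of the spread over genes.

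**Figure D1:**
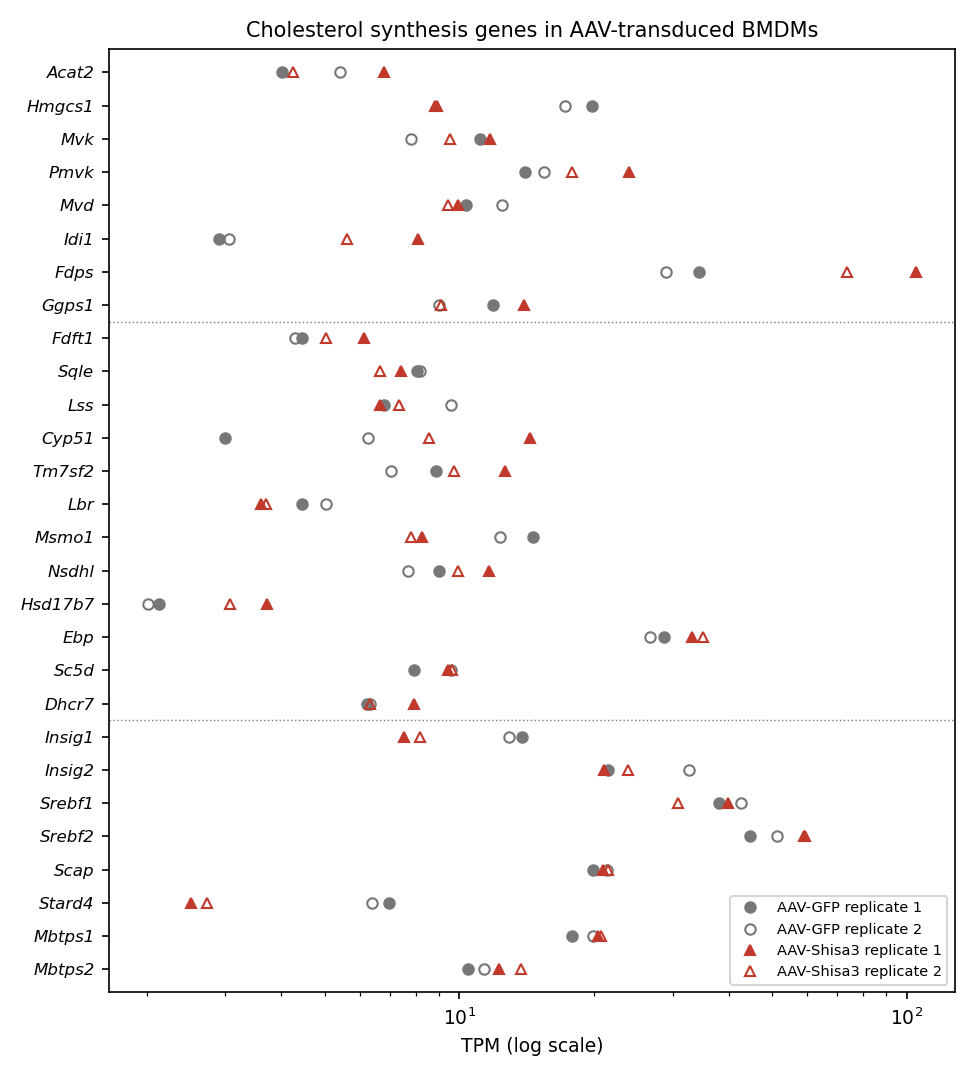
TPM (log scale, horizontal axis) of the 28 genes in each AAV sample, with circles for AAV-GFP and triangles for AAV-Shisa3 (filled for replicate 1, open for replicate 2) and dotted lines between the mevalonate arm, the sterol arm and the regulators. Fdps, Idi1 and Cyp51 have both triangles to the right of both circles, and Hmgcs1, Msmo1, Insig1 and Stard4 have both to the left.

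In the mevalonate arm Hmgcs1 at the entry fell while Idi1 and Fdps, which act late, rose. Fdps, which joins isoprenoid units into farnesyl diphosphate (chromosome 3, 89093588 to 89101959, minus strand, GRCm38), was at 34.3 and 29.0 TPM with AAV-GFP and at 105 and 73.6 TPM with AAV-Shisa3. The groups were well apart, and Fdps rose by 1.45 ± 0.18 on the log2 scale (SE, n = 2 per group; limma adjusted p = 0.0216), a ratio of mean TPM of 2.83. Of its annotated near-identical copies, Gm3571 and Gm5873 were at or below 0.27 TPM in every sample. The copies Gm7513, Gm7979 and Gm8163 and the overlapping gene Gm43738 had no AAV value above 0 under those names.

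Idi1, which makes the dimethylallyl unit used by Fdps (chromosome 13, 8885501 to 8892451, plus strand), was at 2.91 and 3.06 TPM with AAV-GFP and at 8.08 and 5.62 TPM with AAV-Shisa3. It was among the lowest members in AAV-GFP and its ratio of mean TPM was 2.29, with a rise of 0.96 ± 0.19 on the log2 scale (SE, n = 2 per group; limma adjusted p = 0.0465). A processed pseudogene identical to Idi1 over 684 bases, Gm13502, was listed at 0 and 0.77 TPM with AAV-GFP and at 1.71 and 0.59 TPM with AAV-Shisa3, so reads of the pair could be shared.

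Hmgcs1, which makes HMG-CoA at the entry of the pathway (chromosome 13, 119690379 to 119708260, plus strand), was at 19.8 and 17.3 TPM with AAV-GFP and at 8.93 and 8.81 TPM with AAV-Shisa3. The replicates were close and the groups did not overlap, and Hmgcs1 fell by 0.98 ± 0.12 on the log2 scale (SE, n = 2 per group; limma adjusted p = 0.0203). Genes of the same arm therefore changed in opposite directions within the same samples.

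The remaining 5 genes of the arm did not pass the test. Phosphomevalonate kinase (Pmvk) was at 14.0 and 15.5 TPM with AAV-GFP and at 23.97 and 17.9 TPM with AAV-Shisa3, without overlap (log2 difference 0.46, limma adjusted p = 0.131). Mvd, which makes isopentenyl diphosphate, was at 10.3 and 12.5 TPM against 9.96 and 9.45 TPM (-0.21). Mvk, Ggps1 and Acat2 overlapped between groups, with log2 differences of 0.16, 0.11 and 0.18, and Acat2 shares 97.7% of 1477 bases with Acat3 and 445 bases with Tcp1, so its values are uncertain. For these 5 genes a difference was not detectable at the spread between these samples.

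In the sterol arm both AAV-Shisa3 samples lay above both AAV-GFP samples for 7 of the 12 genes, where 18.2% of all genes did so, and the single gene that passed the test fell. Msmo1, which removes methyl groups at carbon 4 of sterols (chromosome 8, 64718139 to 64733792, minus strand), was at 14.6 and 12.3 TPM with AAV-GFP and at 8.25 and 7.78 TPM with AAV-Shisa3. It fell by 0.68 ± 0.13 on the log2 scale (SE, n = 2 per group; limma adjusted p = 0.0419), and centring the samples on their medians ended the call (-0.56, adjusted p = 0.0751). Cyp51, the lanosterol demethylase that acts earlier than Msmo1 (chromosome 5, 4081145 to 4104746, minus strand), was at 3 and 6.26 TPM with AAV-GFP and at 14.4 and 8.54 TPM with AAV-Shisa3. Its log2 difference of 1.17 was the largest among the members after that of Fdps, but its replicates were far apart (SE 0.34) and it did not pass (limma adjusted p = 0.101).

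Other genes of the arm that lay above without passing had smaller differences. Hsd17b7, a sterol ketoreductase, was at 2.13 and 2.01 TPM against 3.72 and 3.08 TPM (log2 difference 0.52, limma adjusted p = 0.126). The sterol reductase Tm7sf2 was at 8.86 and 7.03 TPM against 12.7 and 9.71 TPM (0.44, limma adjusted p = 0.171), and it shares 532 exon bases with Vps51 on the same strand, which was at 54.4 to 66.6 TPM. The decarboxylating dehydrogenase Nsdhl (0.34), the sterol isomerase Ebp (0.29), squalene synthase Fdft1 (0.28) and Dhcr7, which makes cholesterol in the last step (0.16), were also above. Fdft1 shares 774 exon bases with Ctsb on the other strand, which was at 6825 to 7407 TPM, and strand use in counting is not given in the sources used here. Lbr, a second sterol reductase, and squalene epoxidase Sqle lay below (-0.31 and -0.18), while lanosterol synthase Lss (-0.19) and Sc5d (0.11) overlapped.

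Among the regulators, the 2 genes that passed the test both fell. Insig1, which retains the SCAP and SREBP complex (chromosome 5, 28071363 to 28078662, plus strand), was at 13.8 and 12.9 TPM with AAV-GFP and at 7.54 and 8.19 TPM with AAV-Shisa3. The replicates differed little and Insig1 fell by 0.70 ± 0.12 on the log2 scale (SE, n = 2 per group; limma adjusted p = 0.0326). Stard4, a soluble carrier of cholesterol, was at 6.98 and 6.39 TPM with AAV-GFP and at 2.52 and 2.73 TPM with AAV-Shisa3. It had the deepest fall of all members, by 1.08 ± 0.15 on the log2 scale (SE, n = 2 per group; limma adjusted p = 0.0232).

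None of the other regulators passed the test. Srebf2 had the highest TPM of all members in AAV-GFP, at 44.6 and 51.2 TPM, and was at 58.8 and 59.4 TPM with AAV-Shisa3 (log2 difference 0.30, limma adjusted p = 0.117). Srebf1, whose products drive fatty acid synthesis, was at 38.1 and 42.6 TPM against 39.9 and 30.9 TPM, with overlap (-0.19). Insig2 was at 21.5 and 32.6 TPM against 21.1 and 23.8 TPM, also with overlap (-0.23). Scap (0.04), Mbtps1 (0.12) and Mbtps2 (0.23) differed by 0.23 or less on the log2 scale.

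**Figure D2:**
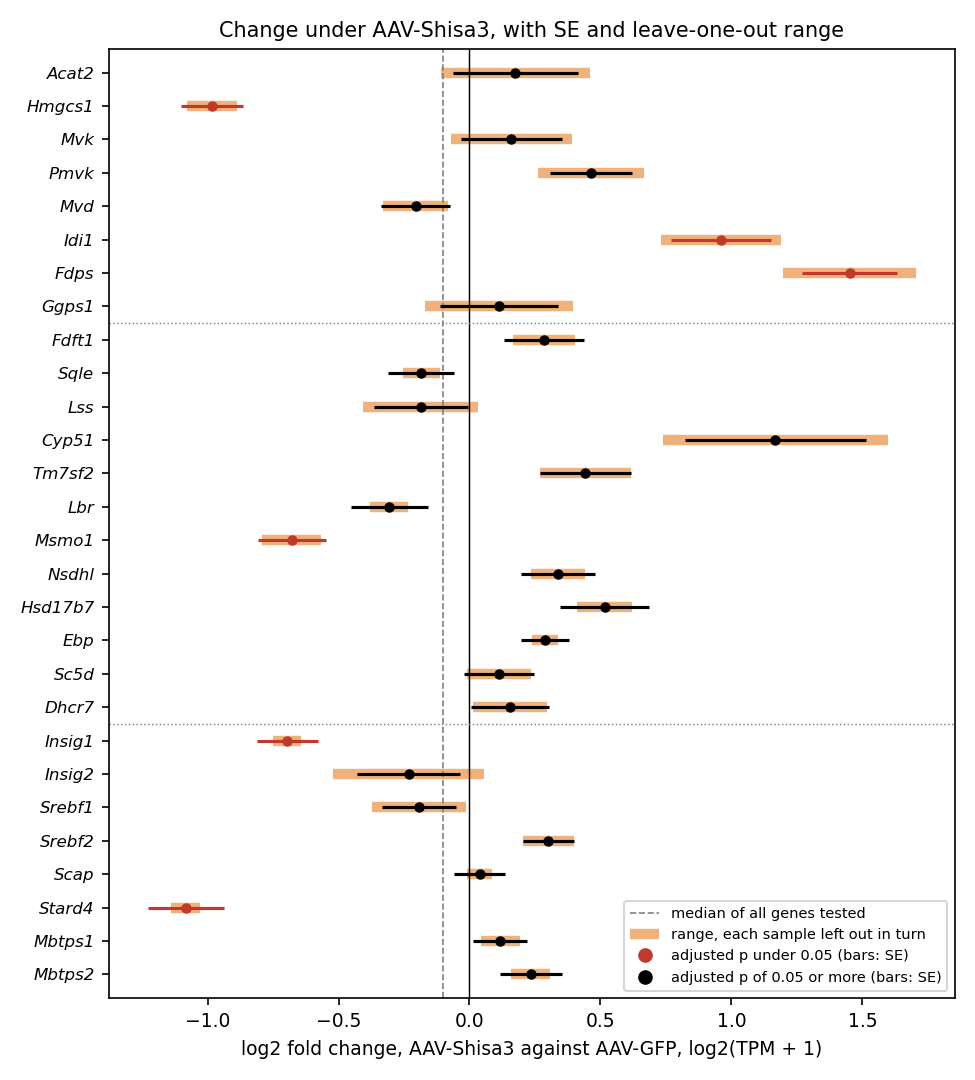
Log2 fold change of log2(TPM + 1), AAV-Shisa3 against AAV-GFP, for the 28 genes, with bars for the SE (n = 2 per group), orange bands for the range when each sample was left out in turn, red points for an adjusted p under 0.05 and a dashed line at the median of all genes tested (-0.10). Hmgcs1, Stard4, Insig1 and Msmo1 stay left of 0 and Fdps and Idi1 right of 0 over their whole bands.

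The 6 calls depended on the settings of the test, and each rests on all 4 samples. Whether they hold with fewer samples could not be tested. Leaving out 1 sample leaves a group with 1 sample, and the other group alone supplies the spread, so only differences are given for those fits. With limma's mean-variance trend left out 0 members passed (7 higher and 5 lower unadjusted), and with no filter on low genes 0 passed (5 and 4 unadjusted), against 8 and 4 unadjusted as reported. The directions of the 6 genes held when each sample was left out: Fdps ranged from 1.198 to 1.71, Idi1 from 0.73 to 1.19, Hmgcs1 from -1.08 to -0.89, Stard4 from -1.14 to -1.03, Insig1 from -0.75 to -0.64 and Msmo1 from -0.79 to -0.57 on the log2 scale. All-gene counts, 250 higher and 460 lower, fell to 1 and 4 without the trend and to 0 and 0 without the filter.

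Neighbouring pathways were described by counts from lists of known members, beside the 2.23% of all genes tested that passed as higher and the 4.10% that passed as lower. Ch25h was at 15.1 and 14.5 TPM with AAV-GFP and at 63.1 and 49.2 TPM with AAV-Shisa3, a rise of 1.85 ± 0.14 on the log2 scale (SE, n = 2 per group; limma adjusted p = 0.0113). It was the 1 gene that passed of 3 oxysterol synthesis genes tested (list median 0.62). Of 13 fatty acid synthesis genes tested, 3 passed as higher (Fads2, Scd1 and Me1, at 1.17, 1.07 and 0.58) and 0 as lower, with a list median of 0.02. Of 10 genes of reductase and INSIG turnover, none passed (median -0.16), and of 11 genes of sterol uptake, transport and esterification, 1 passed, Gramd1b, as lower (-0.48; median -0.23). Of 12 isoprenoid users 1 passed, Rabggta, as lower (-0.47; median -0.05). The neutrophil markers moved with the groups as well: 7 of 7 tested lay above in both AAV-Shisa3 samples, where 18.2% of all genes did, with a median log2 difference of 0.75 and summed levels of 593 and 565 TPM with AAV-GFP and of 1090 and 681 TPM with AAV-Shisa3 (Ngp and Camp passed limma's test). Fibroblast markers summed to between 9.39 and 16.3 TPM. The part of the neutrophil signal in the members' differences was not tested.

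Along the LPS time course most of the pathway's enzymes were higher at 4 h, and the pattern at 2 h was mixed. At 4 h 13 of 28 members were at least 2-fold higher than at 0 h in the authors' values, where 22.2% of the 17854 genes kept were, and 1 member was at least 2-fold lower, where 23.6% were. At 2 h 5 members were at least 2-fold higher, where 20.5% of genes were, and 3 were at least 2-fold lower, where 24.7% were. The members' median log2 change was 0.06 at 2 h and 0.76 at 4 h, against -0.05 and -0.04 over all genes kept. In the authors' values 21 of the 28 members had their highest value at 4 h, where 31.5% of genes did. Under each of 4 scalings of the libraries 14 members were higher at 4 h than at 0 h, where 26.6% of genes were, and 3 were lower, where 39.2% were.

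The scale set on each library changed these counts. At 4 h, 16 members were at least 2-fold higher and 1 lower after centring, and 9 were higher and 5 lower with library totals, while at 2 h the counts were 8 and 1 after centring and 1 and 9 with library totals. Scaling to library totals shifted the all-gene median to -0.71 at 2 h and -0.83 at 4 h, and centring on library medians moved it to 0.26 and 0.33. Under library totals the members' median was -0.60 at 2 h and -0.06 at 4 h. A stricter rule took only genes at least 2-fold different in the same direction under all 4 scalings (the authors' values, centring, edgeR's TMM factors and library totals). At 4 h these were 9 higher members, where 13.8% of all genes were, and 1 lower member, where 17.0% were. At 2 h they were 1 higher member (Srebf2), where 13.7% of genes were, and 1 lower member (Dhcr7), where 19.3% were. The 4 scalings are not 4 separate checks, since each shifts all genes of a library nearly alike. At 4 h library totals alone gave the 9 higher members and 2468 higher genes. Centring alone gave the 1 lower member and 3036 lower genes.

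**Figure D3:**
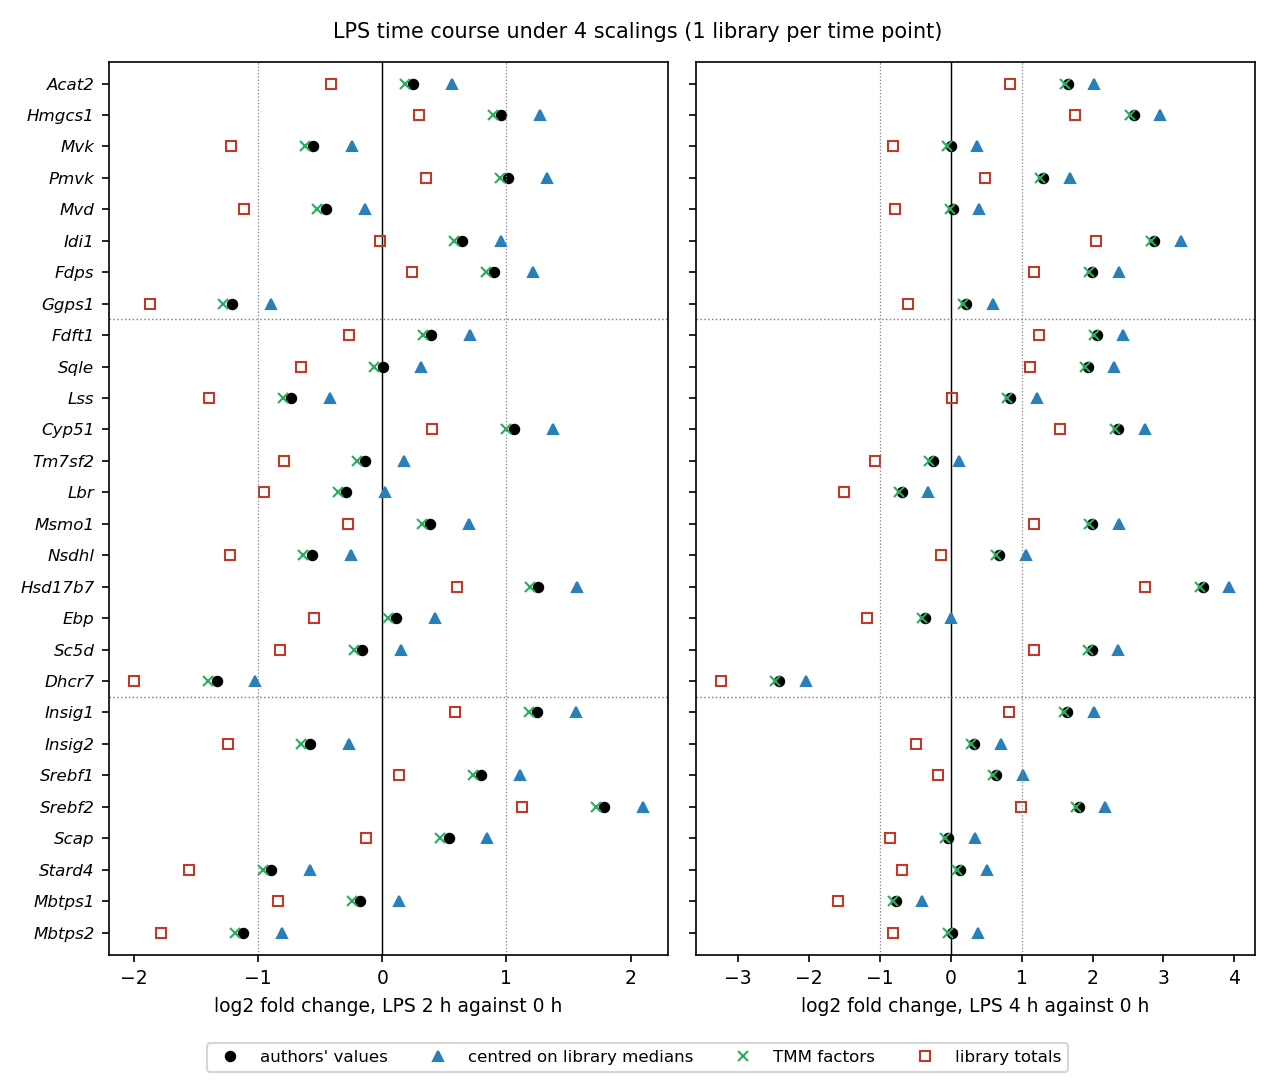
Log2 fold change against 0 h at 2 h (left) and 4 h (right) for the 28 genes under 4 scalings of the same libraries (1 library per time point), with dotted vertical lines at 2-fold. At 4 h 9 genes have all 4 marks at or beyond 2-fold on the right, from Hmgcs1 to Sc5d, and Dhcr7 has all 4 on the left at both times.

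In the mevalonate arm the 3 genes that passed this rule at 4 h were Hmgcs1, Idi1 and Fdps. Hmgcs1 was at 1321, 2566 and 7893 in the authors' normalised values at 0, 2 and 4 h, from 2053, 1175 and 14524 reads. Its ratio to 0 h was 1.94 (interval 1.81 to 2.09) at 2 h and 5.98 (5.71 to 6.26) at 4 h, and 3.38 at 4 h with library totals. The interval at 4 h lay wholly above that at 2 h. Idi1 was at 116, 181 and 854, with ratios of 1.57 and 7.37 (6.32 to 8.65 at 4 h) in the authors' values. With library totals its ratios were 0.99 and 4.15, so a rise at 2 h depended on the scaling.

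Fdps was at 423, 793 and 1693, with ratios of 1.87 at 2 h and 4.00 (3.68 to 4.36) at 4 h, and of 1.18 and 2.26 with library totals. It was higher at both times under each scaling. Pmvk and Acat2 were higher at 4 h under the 4 scalings but under 2-fold with library totals, with ratios of 2.49 and 3.16 in the authors' values. Mvk and Mvd were near their 0 h values at 4 h (ratios 1.00 and 1.02) and lower at 2 h (0.68 and 0.73), and with library totals both were lower at 4 h too (0.57 and 0.58). Ggps1, which leads to geranylgeranyl diphosphate, was at 279, 120 and 326 and was lowest at 2 h under each of the 4 scalings.

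In the sterol arm 6 genes passed the rule as higher at 4 h, and they span the arm from its first enzymes to Sc5d. Hsd17b7 (chromosome 1, 169949535 to 169969241, minus strand) had the largest ratio of all members. It was at 59.8, 144 and 715 in the authors' values, from 93, 66 and 1316 reads, with a ratio of 2.41 (1.73 to 3.34) at 2 h and 11.95 (9.68 to 14.9) at 4 h, and of 6.70 at 4 h with library totals. Cyp51 was at 560.3, 1170.4 and 2884, with ratios of 2.09 and 5.15 (4.79 to 5.54). Like Hmgcs1 and Fdps, it was higher at both times under the 4 scalings.

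The other 4 of these genes were close to each other at 4 h and lagged at 2 h. Fdft1, the first enzyme committed to sterols, was at 277, 365 and 1160.2, with a ratio of 4.18 at 4 h. Sqle was at 292, 293 and 1122, with ratios of 1.00 at 2 h and 3.84 at 4 h. Msmo1 was at 664, 869 and 2652, with ratios of 1.31 and 3.99 (3.73 to 4.27). Sc5d was at 352, 314 and 1401, with ratios of 0.89 and 3.98. With library totals the 4 ratios at 4 h were between 2.17 and 2.36, and those at 2 h were all below 1, at 0.83, 0.63, 0.83 and 0.57.

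Not all of the arm followed. Dhcr7, the last enzyme to cholesterol (chromosome 7, 143823145 to 143848410, plus strand), was at 167, 65.5 and 30.4, from 259, 30 and 56 reads, with ratios of 0.39 (0.26 to 0.58) and 0.18 (0.13 to 0.24). It was the single member at least 2-fold lower under each of the 4 scalings at both times. Lbr was at 1157, 948 and 719 and was lower at 4 h under each scaling, with a ratio of 0.62 (0.58 to 0.67). Tm7sf2 and Ebp had ratios of 0.84 and 0.78 at 4 h, which turned to 1.09 and 1.01 on centring. Lss (0.60 at 2 h, 1.79 at 4 h) and Nsdhl (0.67 and 1.61) were low at 2 h and high at 4 h, and with library totals Nsdhl was lower at both times while Lss stood at 1.01 at 4 h.

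Among the regulators, Srebf2 and Insig1 were already higher at 2 h. Srebf2 was at 840.1, 2896 and 2945 in the authors' values, from 1306, 1326 and 5419 reads, with ratios of 3.45 (3.19 to 3.72) and 3.51 (3.30 to 3.73), and of 2.18 and 1.98 with library totals. Its level at 4 h was 1.02 times that at 2 h, so the difference from 0 h was present in full at the earlier time. Insig1 was at 1164, 2767 and 3648, with ratios of 2.38 and 3.13 (2.97 to 3.30), and of 1.502 and 1.77 with library totals. Both were therefore higher at both times under each scaling, although with library totals Insig1 was under 2-fold at both times and Srebf2 at 4 h.

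The other regulators were not 2-fold different at 4 h in the authors' values. Srebf1 had ratios of 1.74 and 1.57, and 0.88 at 4 h with library totals. Stard4 was at 410.4, 221 and 452, with ratios of 0.54 (0.43 to 0.66) at 2 h and 1.10 (0.99 to 1.22) at 4 h, and it was lower at 2 h under each scaling. Mbtps2 (0.46 and 1.01) and Insig2 (0.67 and 1.26) had the same dip at 2 h under each scaling, and Mbtps2 shares 2867 exon bases with Yy2 on the same strand. Mbtps1 was lower at 4 h under each scaling (0.59), and Scap had ratios of 1.45 and 0.98 in the authors' values, which became 0.92 and 0.55 with library totals.

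The members' values in the 2 experiments are set side by side here. Fdps and Idi1 were higher in both, at 1.45 and 0.96 on the log2 scale under AAV-Shisa3 and at 2.00 and 2.87 at 4 h of LPS. Hmgcs1, Msmo1 and Insig1 went opposite ways, with falls of -0.98, -0.68 and -0.70 under AAV-Shisa3 and log2 changes of 2.58, 2.00 and 1.65 at 4 h, positive under each of the 4 scalings. Stard4 fell under AAV-Shisa3 (-1.08) and was at 0.14 at 4 h and -0.89 at 2 h. Cyp51 and Hsd17b7, both strongly higher at 4 h (2.36 and 3.56), were above but did not pass the test under AAV-Shisa3. Dhcr7, the lowest member at 4 h (-2.41), was at 0.16 under AAV-Shisa3.

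Over all members the sign under AAV-Shisa3 and at 4 h of LPS was the same for 14 of 28 (50%), against 57.1% of the 10529 genes in both comparisons, and at 2 h for 15 of 28 (53.6%), against 59.5%. Centring both tables gave 17 of 28 (60.7%) at 4 h against 59.9%. With library totals for LPS the members' shares were lower than those of all genes, at 12 of 28 (42.9%) against 65.4% at 2 h and 14 of 28 (50%) against 64.8% at 4 h. That scaling put the all-gene LPS median at -0.71 at 2 h and -0.83 at 4 h, beside an AAV median of -0.10. The part of these offsets in the shares was not tested. No difference between these shares was tested. The tables were normalised separately, so levels were compared only within each.

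**Figure D4:**
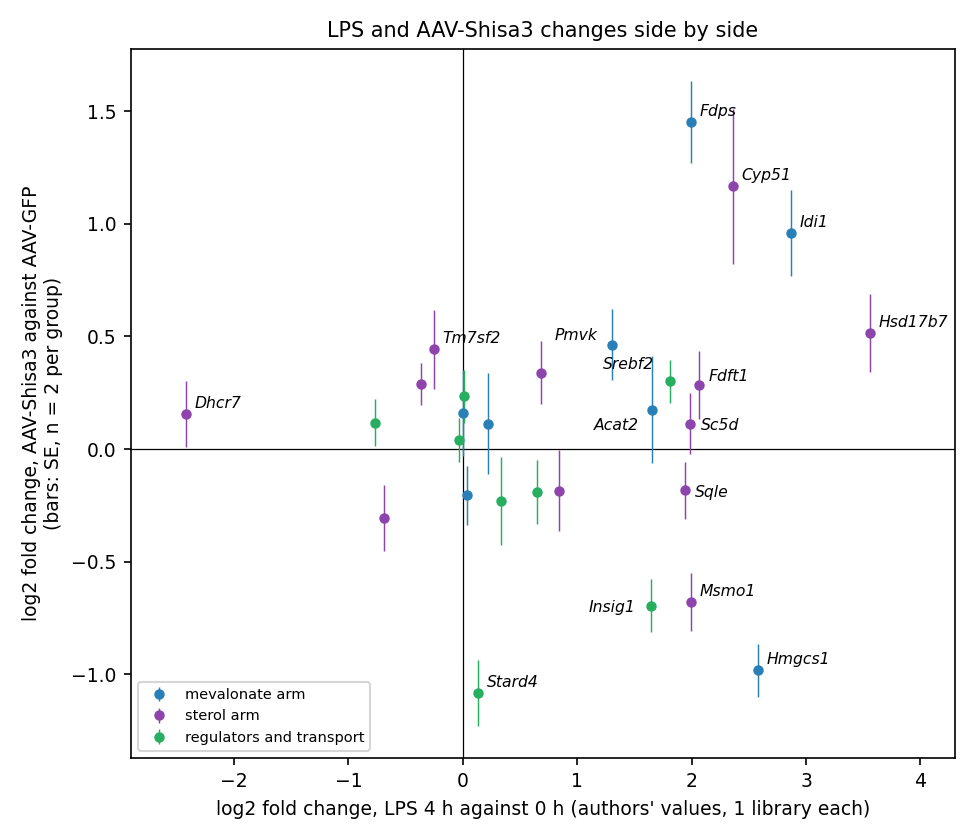
Log2 fold change at 4 h of LPS against 0 h (horizontal, authors' values, 1 library each) against log2 fold change of AAV-Shisa3 over AAV-GFP (vertical, bars for the SE, n = 2 per group) for the 28 genes, coloured by role. Fdps and Idi1 lie in the upper right quadrant, Hmgcs1, Msmo1 and Insig1 in the lower right, and Dhcr7 far to the left.

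The neighbouring lists at 4 h of LPS were counted in the authors' values, where 22.2% of all genes were at least 2-fold higher and 23.6% lower. Of 10 genes of reductase and INSIG turnover 3 were at least 2-fold higher (Rnf145, Syvn1 and Rnf139, at 2.15, 1.90 and 1.61) and none lower, with 4 and 0 after centring and 2 and 0 with library totals. Of 12 genes of sterol uptake, transport and esterification 2 were higher and 6 lower, with a median of -0.85, and the balance of the counts turned to 3 higher and 2 lower after centring (median -0.48) and was 2 and 8 with library totals. Of 15 fatty acid synthesis genes 1 was higher, Aacs (1.14), and 2 were lower, Fads1 and Scd2 (-2.47 and -1.40), with 3 higher and 2 lower after centring and 0 and 7 with library totals. Of 12 isoprenoid users 2 were higher, Pdss1 and Pggt1b (3.53 and 1.05), and 1 was lower, Rabggta (-1.16). Their counts were 3 and 0 after centring and 1 and 7 with library totals. Of 4 oxysterol synthesis genes 2 were higher, Ch25h and Cyp7b1 (2.09 for Cyp7b1), and 1 was lower, Cyp27a1 (-1.99). The counts were 2 and 1 after centring and 2 and 2 with library totals. Ch25h had 2, 203 and 2575 reads at 0, 2 and 4 h, and no fold is given against the 2 reads at 0 h. The neutrophil markers, which moved with the AAV groups, summed to 4717, 9910 and 7040 in the authors' values at 0, 2 and 4 h. The dendritic markers summed to 34.7, 118 and 279 (log2 changes at 4 h of 4.25 for Ccr7, 1.23 for Xcr1 and -1.02 for Flt3), and of the macrophage markers Fcgr1 and Cd14 were higher at 4 h (3.48 and 2.62) while the list summed to 335035, 370346 and 335029. The part of these markers in the members' changes was not tested. Depth also moved with time, with the fewest reads in the 2 h library, where Dhcr7, Tm7sf2 and Nsdhl had 30, 31 and 47 reads.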

How the data were processed

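RNA was sequenced from 7 samples, 3 LPS libraries and 4 AAV samples, with groups taken from the labels. For LPS the authors deposited a signal per gene, in which reads were divided by a library factor. 100% of these values were whole multiples of 1 step (tolerance 0.01 reads), so reads were recovered, but with 1 library per time point no count test could be fitted. For AAV the authors deposited values that sum to between 999778 and 999818 per sample, and these were read as TPM, a unit inferred from the values. The submitters' processing notes name the build mm9. The aligner, annotation, counting tool and scaling tool are not given in the sources used here.

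AAV values on the log2(TPM + 1) scale went into limma with a mean-variance trend and Benjamini-Hochberg adjustment (11218 genes, mean 1 or more). LPS changes were taken on log2(value + 1) for 17854 genes by the same minimum, with 95% exact counting intervals on ratios. A fold on these scales understates the change of low genes. Alternatives were no trend, centring, other filters, pseudocounts of 0.1 and 5, a replicate block, leaving out each sample, library totals and edgeR's TMM factors. The planned tests held a branch for AAV counts, which was not used.

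All 28 members were named, with values for Shisa3, Ch25h and list genes that a small count singled out. The members and lists were chosen with earlier results of these data known. Positions came from GENCODE M21 on GRCm38, another build than mm9, by identifier (19 of 28 versions matched), and promoters from RefSeq GRCm38.p6. Motifs were counted in whole windows, and only the printed stretches were cut before the first annotated exon. Overlapping genes were found from GENCODE M21 exon positions, and copies with blastn 2.17.0. The limma step was tested on simulated data. R 4.3.3, limma 3.58.1, edgeR 4.0.16, Python 3.11.15, matplotlib 3.10.9, scipy 1.17.1, pandas 2.3.3 and numpy 2.4.6 were used.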

Additional observations from a re-analysis of the deposited data

Results flagged for a closer look

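Lss, which closes squalene epoxide to lanosterol, was the single member whose change against 0 h had opposite directions at 2 h and 4 h under each of the 4 scalings. Its log2 change was -0.73 at 2 h and 0.84 at 4 h in the authors' values, from 593, 105 and 1257 reads at 0, 2 and 4 h. The difference between the times was not tested, since each time point had 1 library and both changes share the 0 h library. With library totals the change at 4 h was 0.02.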

How the results depend on the processing

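For AAV-Shisa3 against AAV-GFP, the counts of members higher and lower (2 and 4) became 0 and 0 without limma's trend or without the filter, while all genes higher and lower (250 and 460) became 1 and 4 and 0 and 0 (811 higher and 2148 lower, and 1118 and 2411, at an unadjusted p under 0.05). Centring gave 410 genes higher and 230 lower, and moved the members' median from 0.14 to 0.25. Leaving out each sample moved it to between 0.04 and 0.20. A replicate block gave 424 genes higher and 851 lower and changed no member's call. The same-numbered samples' deviations from their group means correlated at 0.19 over 11218 genes. With 2 samples per group both pairs give this same value, so it cannot decide whether the samples were paired. Leaving out 1 sample gave 0 to 1 members higher and 0 lower, and 0 to 27 genes higher and 0 to 7 lower. Each of these fits leaves a group with 1 sample, so the counts cannot decide whether the calls hold. The cause of the lower counts was not tested. Members that did not pass the test changed sign when a sample was left out: Acat2 ranged from -0.11 to 0.46, Mvk from -0.071 to 0.39, Ggps1 from -0.17 to 0.40, Lss from -0.40 to 0.034, Sc5d from -0.0083 to 0.23, Insig2 from -0.52 to 0.057 and Scap from -0.0095 to 0.087.

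For LPS at 2 h, the counts of members at least 2-fold higher and lower (5 and 3) became 8 and 1 on centring, 1 and 9 with library totals and 3 higher with TMM factors, and the members' median became 0.37 on centring and -0.60 with library totals. At 4 h (13 and 1) library totals gave 5 lower, and the median became 1.13 on centring and -0.059 with library totals. With library totals 7576 genes were lower at 2 h, and 2468 were higher and 8223 lower at 4 h. The cause of these shifts was not tested. The added settings for the side by side count moved it by less than 1.5 times. Leaving out a library was not possible for LPS, and no depth is known for the AAV values.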
